A study of Rattus norvegicus with 18 samples.

Results

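*Thsd7b*, *Cfap52*, *Rgr*, *Nptx2* and *Slc5a11* are 5 genes outside the cell cycle and myelin classes that were selected on measured values: they were among the genes with the largest falls after 1 day of PD169316 in rat oligodendrocyte progenitors (OLPs). They were found by gene symbol, which gave 6 probes for the 5 genes among 22523 probes on the array. Of these, 5 probes, 1 per gene, were among the 10574 kept for testing, which carry 7558 different gene symbols. PD169316 blocks the kinases p38α and p38β, and each gene was followed here across all groups of the series.

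OLPs were isolated from the brains of neonatal Sprague-Dawley rats, and labelled cRNA made from their total RNA was hybridized to Illumina RatRef-12 arrays. The 18 arrays fall into 6 groups of 3: day 0 progenitors, cells differentiated for 1 or 2 days without inhibitor (day 1 and day 2 control), and cells differentiated for 1, 2 or 4 days with PD169316. By the study's methods, progenitors were kept with the growth factors PDGF-AA and bFGF, and differentiation followed their removal. Comparisons with day 0 therefore also compare cells with and without these growth factors. Controls received the vehicle DMSO by the study's methods, and no day 4 control is labelled, so time and inhibitor cannot be told apart at day 4. The labels do not say whether the 3 samples of a group came from separate cultures, and the p-values therefore rest on the spread between these arrays, which may be technical.

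p38 is a mitogen-activated protein kinase that passes signals from growth factors and stress to other kinases and to transcription factors, and it has been studied in OLPs for a role in their differentiation into myelin-forming oligodendrocytes (OLGs). The 5 genes belong to unrelated families. *Thsd7b* encodes a membrane protein with thrombospondin type 1 repeats, modules that many extracellular matrix and guidance proteins carry. *Cfap52*, also called *Wdr16*, encodes a WD-repeat protein of the microtubules of motile cilia and flagella. *Rgr* encodes an opsin that binds retinal in the pigment epithelium and Müller cells of the eye. *Nptx2*, or Narp, encodes a secreted pentraxin that neurons release at excitatory synapses, where it gathers AMPA receptors. *Slc5a11* encodes SMIT2, a sodium-coupled transporter of myo-inositol, an osmolyte and precursor of phosphoinositides.

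The promoter windows of the genes with a RefSeq entry (3 of 5 matched, build GRCr8) are shown because the genes were chosen for a shared fall, and the letters let a reader see how far these windows resemble each other. Each runs 5′ to 3′ on the gene's strand, from 250 bases before to 50 bases after the start site, and capitals mark matches to a searched motif on either strand. The *Thsd7b* window is chr13:43458095-43458394 on the plus strand, that of *Rgr* is chr16:12836437-12836736 on the minus strand and that of *Nptx2* is chr12:15161996-15162295 on the minus strand.
Thsd7b: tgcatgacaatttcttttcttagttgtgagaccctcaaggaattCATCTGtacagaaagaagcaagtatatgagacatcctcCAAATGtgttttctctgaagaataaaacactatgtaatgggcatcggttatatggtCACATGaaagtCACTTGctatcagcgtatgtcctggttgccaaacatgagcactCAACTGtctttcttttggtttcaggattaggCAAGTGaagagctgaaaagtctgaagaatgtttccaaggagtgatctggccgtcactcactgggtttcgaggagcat
Rgr: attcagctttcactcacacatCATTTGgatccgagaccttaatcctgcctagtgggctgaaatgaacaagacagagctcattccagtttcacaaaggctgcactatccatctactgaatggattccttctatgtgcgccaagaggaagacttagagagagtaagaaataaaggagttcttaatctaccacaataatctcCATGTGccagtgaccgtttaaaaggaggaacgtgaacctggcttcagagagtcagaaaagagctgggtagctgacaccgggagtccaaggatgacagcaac
Nptx2: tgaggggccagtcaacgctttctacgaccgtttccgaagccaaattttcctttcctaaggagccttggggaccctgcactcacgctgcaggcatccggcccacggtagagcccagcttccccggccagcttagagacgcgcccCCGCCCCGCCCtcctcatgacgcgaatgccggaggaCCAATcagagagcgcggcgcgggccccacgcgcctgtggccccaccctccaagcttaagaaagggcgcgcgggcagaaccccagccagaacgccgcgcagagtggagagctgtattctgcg

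The windows had little in common. The E-box letters CANNTG occurred 6 times in the *Thsd7b* window, 2 times in that of *Rgr* and 0 times in that of *Nptx2*, while 72.1% of all 33469 promoter windows of this length hold at least 1 match and 0.52% hold 6 or more. *Nptx2* alone held the CCAAT letters (1 match, present in 37.5% of all windows) and the GC box GGGCGG (2 overlapping matches on the opposite strand, present in 33.1% of all windows). The letters TATAAA (14.2% of all windows), TGANTCA of AP-1 (7.33%), TGACGTCA of the cAMP response element (1.83%) and ACAATG of SOX-type sites (13.2%) occurred in none of the 3. The share of G and C was 41.3% for *Thsd7b*, 45.3% for *Rgr* and 65.7% for *Nptx2*, beside a median of 51.7% over all windows. A match describes letters and not a bound site.

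Levels below are log2 intensities after background correction and quantile normalization, for 1 probe per gene, and they compare groups for a gene and not genes with each other. The probes of the 5 genes were read from 26 to 63 beads per array, with a standard error of the bead mean between 2.51% and 6.18% of the intensity. 4 of the genes were detected on all 18 arrays (detection p under 0.01). *Slc5a11*, the dimmest, was detected on 16 arrays. The other probe of *Cfap52* was detected on 0 of 18 arrays, with intensities of 91.5 to 133, so the pair of probes disagree and the gene rests on a single probe. RefSeq also lists *Usp43*, the name of a neighbouring gene, among the synonyms of *Cfap52*, and which transcripts either probe matches was not analysed here, so values of *Cfap52* are those of this probe. The RNA is from whole cultures, in which fewer cells of a type and less RNA per cell cannot be told apart.

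All 7 OLP markers on the array, among them *Pdgfra*, *Olig2* and *Sox10*, were detected on every array, and mature OLG markers on 9 to 11 of 11. Between 10 and 13 of 15 neuron markers and 8 to 9 of 9 astrocyte markers were detected as well. Among the day 2 libraries, a pair stood closer to the other label than to their own. The one labelled control 3 had correlations of 0.986 and 0.987 with its fellow controls but up to 0.997 with PD169316 libraries. The one labelled PD169316 1 had correlations of 0.980 and 0.983 with its fellows but up to 0.994 with controls. Both are used under their labels, and the differences, counts and correlations of the 5 genes that rest on them are given with and without them.

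**Figure D1:**
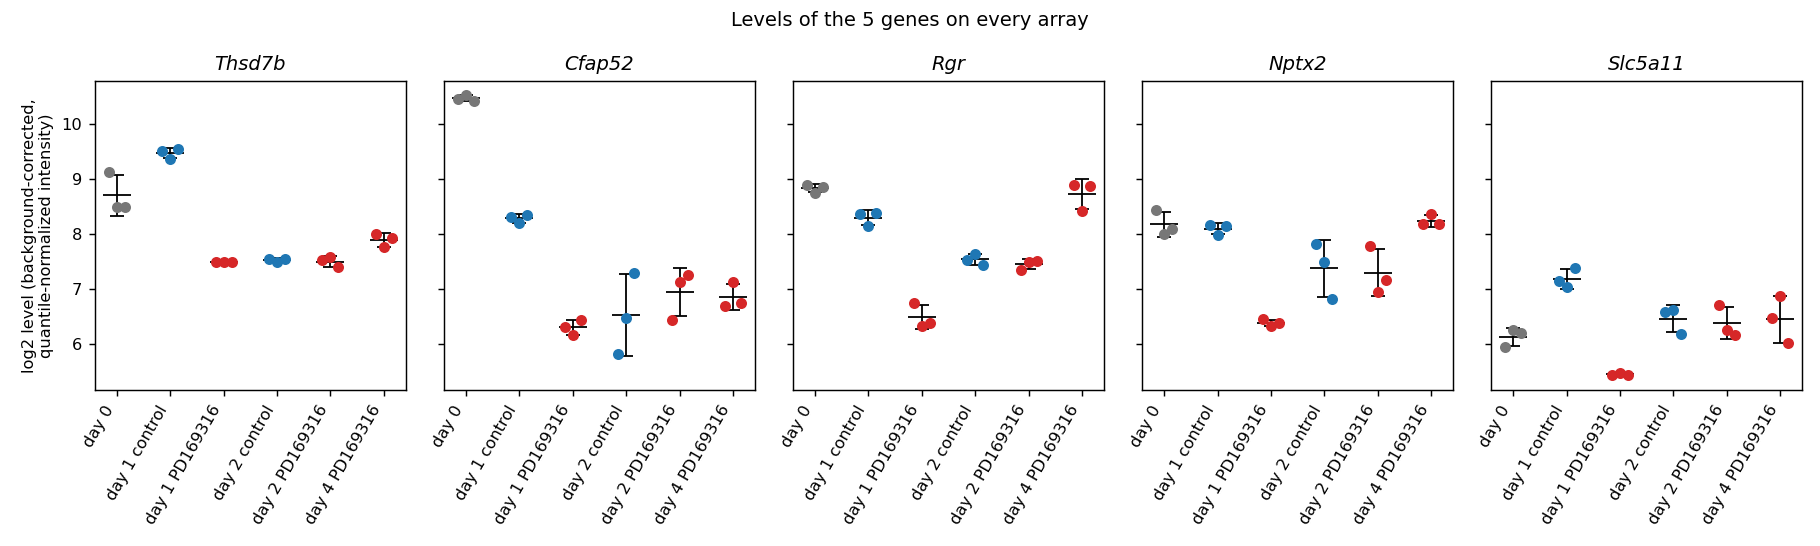
Log2 level (background-corrected, quantile-normalized intensity) of each gene on every array, by group. Points are arrays, the horizontal bar is the group mean and the whisker is 1 SD (n = 3). Red marks PD169316, blue control and grey day 0. At day 1 the red points lie below the blue points for all 5 genes.

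At day 1, the contrast by which the genes were chosen, each gene lay lower on every PD169316 array than on any control array. The falls were 3.28- to 3.96-fold, and they are given as a description without a test. Of all probes tested, 4.48% were lower at an adjusted p under 0.05 in limma, and for 20.7% the highest PD169316 array was below the lowest control array.
*Thsd7b* was at 9.50, 9.37 and 9.55 in control cultures and at 7.48, 7.49 and 7.49 with PD169316. The difference of the means was -1.99, or 3.96-fold. Its inhibitor arrays were the most alike of any group of the 5 genes, with an SD of 0.0052. Their deposited intensities were 280, 285 and 219, with bead standard errors of 3.42% to 3.77%, so this SD does not measure precision.
*Cfap52* was at 8.31, 8.20 and 8.35 in control cultures and at 6.30, 6.16 and 6.44 with PD169316, also a difference of -1.99. *Rgr* was at 8.36, 8.14 and 8.39 against 6.74, 6.33 and 6.38, a difference of -1.81 or 3.51-fold. In both, the gap between the groups exceeded the range within either.
*Nptx2* was at 8.16, 7.99 and 8.14 in control cultures and at 6.45, 6.33 and 6.37 with PD169316, a difference of -1.71 or 3.28-fold. *Slc5a11* was at 7.13, 7.03 and 7.38 against 5.43, 5.47 and 5.42, a difference of -1.74. *Slc5a11* passed detection on 1 of the 3 PD169316 arrays, with detection p of 0.0099 to 0.0345, so its lower level lies at the edge of what the array measures and the size of its fall is uncertain (-0.79 without background correction).

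Among 7720 probes with a single gene symbol, the 5 genes held places 5, 6, 8, 9 and 10 in order of fall. Just ahead of them were *Lcn2* (-2.24), *Me3* (-2.11) and *Pnoc* (-2.10), and *Cdkn1c*, a cyclin-dependent kinase inhibitor, fell between them at -1.97. Just outside were *Cxcl1* (-1.62), *Dse* (-1.59) and *Ephb1* (-1.58). The size of the falls and the places depended on the background correction, that of *Slc5a11* most among the 5. With quantile normalization alone, *Thsd7b* took place 3 with a difference of -1.55, *Cfap52* place 11 (-1.22), *Rgr* place 13 (-1.14), *Nptx2* place 20 (-1.04) and *Slc5a11* place 54 (-0.79). In the deposited intensities themselves, the PD169316 mean was 0.345 of the control mean for *Thsd7b* and 0.585 of it for *Slc5a11*.

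**Figure D2:**
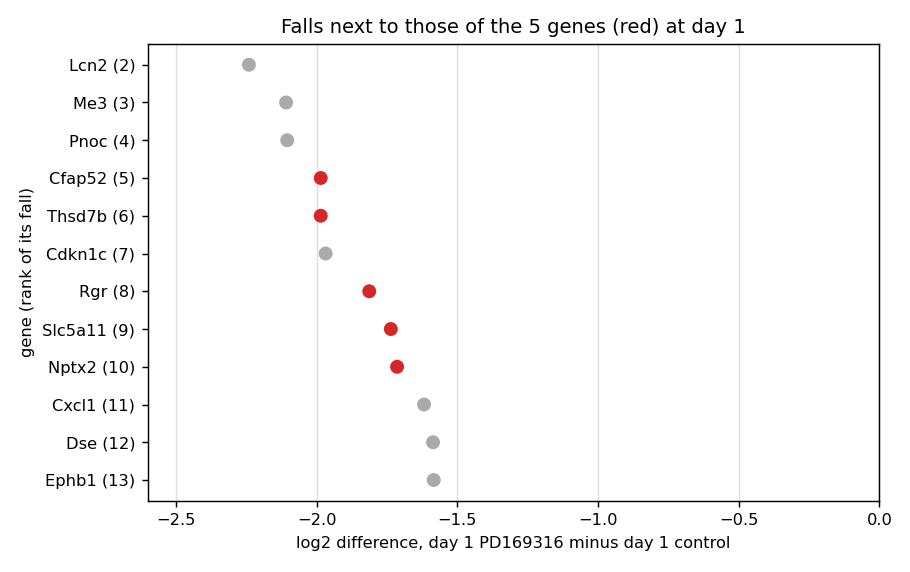
Log2 difference between day 1 PD169316 and day 1 control (horizontal axis) for genes ranked 2 to 13 by their fall among named probes. Red points are the 5 chosen genes, from -1.99 to -1.71, and grey points the genes next to them, from -2.24 for *Lcn2* to -1.58 for *Ephb1*.

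Some marker genes passed at day 1 too, where 4.48% of all probes were lower and 6.59% higher. Of 7 OLP markers 4 passed as lower with PD169316, *C1ql1*, *Olig2*, *Sox10* and *Olig1*, and the summed linear level of the list was 58592 to 61916 in controls and 48502 to 51269 with PD169316. Of 11 mature OLG markers 2 passed as lower, *Cnp* and *Ugt8*, and the list summed to 73764 to 77158 against 55155 to 56513. Of 9 astrocyte markers 1 passed, *Gfap*, which was lower, and of 12 neuron markers kept 2 passed, *Gad1* and *Syt1*, which were higher. The summed linear level of the 9 astrocyte markers was 42426 to 44984 in controls and 32171 to 34127 with PD169316, and that of the 15 neuron markers was 11262 to 11656 against 14232 to 15696. The 8 ependymal markers, from cells that carry motile cilia, summed to 286 to 339 and 303 to 329, with *Rsph1*, *Sntn* and *Tmem212* detected on no array of either group. At day 0, where *Cfap52* was highest, those 3 were undetected too and the list summed to 261 to 295. The list summed to 391 to 439 in day 2 controls, with 2 to 3 of the 8 markers detected per array. At day 4 with PD169316 it summed to 528 to 607, with 2 to 4 detected. Its 2 markers kept for testing, *Tekt1* and *Dynlrb2*, both passed as higher in these 2 groups against day 0. Both are also among the motile cilium genes below, so they are not separate observations there. *Nptx2*, a gene that neurons express, was lower with PD169316 on this contrast, which chose it. Of the 12 neuron markers kept, 10 did not pass. The part of these cell types and stages in the falls was not tested.

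Across the groups, the 5 genes followed different courses, which the plot of levels on every array shows. Comparisons that hold day 1 arrays are descriptions, since those arrays chose the genes.

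*Thsd7b* was highest in day 1 controls and reached a common low level in both day 2 groups. It was at 9.13, 8.49 and 8.49 at day 0. In day 2 controls it was at 7.55, 7.48 and 7.54, and at day 2 with PD169316 at 7.52, 7.58 and 7.39. At day 4 with PD169316 it was at 7.99, 7.76 and 7.92. The order of the means was day 1 control, day 0 and day 4, each apart from the next, and then day 2 control, day 2 PD169316 and day 1 PD169316, which overlapped. The day 1 PD169316 mean of 7.49 and the day 2 control mean of 7.52 differed by less than the spread of the day 2 arrays.

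*Cfap52* was highest in progenitors and lower in every later group. It was at 10.46, 10.53 and 10.43 at day 0, above all other arrays. It was at 5.81, 6.46 and 7.29 in day 2 controls and at 6.44, 7.13 and 7.25 at day 2 with PD169316. At day 4 it was at 6.69, 7.13 and 6.73. Day 1 controls, at a mean of 8.29, lay between day 0 and all other groups, and the neighbours among the day 2, day 4 and day 1 PD169316 groups overlapped. The day 2 controls spread from 5.81 to 7.29, the widest of any group of the 5 genes (SD 0.75). Without the 2 libraries, the day 2 mean was 6.13 for control, then the lowest of all groups, and 7.19 for PD169316.

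*Rgr* was high at both ends of the series. It was at 8.89, 8.75 and 8.86 at day 0 and at 8.90, 8.42 and 8.87 at day 4 with PD169316, and these groups overlapped. It was at 7.53, 7.64 and 7.44 in day 2 controls and at 7.35, 7.50 and 7.51 at day 2 with PD169316. Day 1 PD169316, at a mean of 6.48, lay below every other group without overlap.

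*Nptx2* had a similar course. It was at 8.43, 8.001 and 8.10 at day 0 and at 8.18, 8.36 and 8.17 at day 4, and both overlapped their neighbours in order, the latter with day 0 and day 0 with day 1 controls. It was at 7.82, 7.48 and 6.81 in day 2 controls and at 7.77, 6.95 and 7.16 at day 2 with PD169316. Its day 1 PD169316 mean, 6.38, was again the lowest and apart from the rest.

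*Slc5a11* passed as lower in none of the tested comparisons with day 0, which left out the day 1 groups. It was at 5.95, 6.24 and 6.19 at day 0, at 6.59, 6.61 and 6.17 in day 2 controls and at 6.70, 6.26 and 6.17 at day 2 with PD169316. At day 4 it was at 6.47, 6.86 and 6.01. These 4 groups overlapped from neighbour to neighbour. Day 1 controls, at 7.18, lay above all of them and day 1 PD169316, at 5.44, below.

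The effect of the inhibitor on arrays that did not choose the genes was read at day 2. None of the 5 genes passed between day 2 PD169316 and day 2 control. In limma 0 of 10574 probes (0%) passed in either direction, while 469 had an unadjusted p under 0.05. The differences were -0.03 for *Thsd7b* (95% interval -0.31 to 0.26), -0.09 for *Rgr* (-0.36 to 0.19), -0.08 for *Nptx2* (-0.55 to 0.39), -0.08 for *Slc5a11* (-0.49 to 0.32) and 0.42 for *Cfap52* (-0.17 to 1.01). The intervals did not reach the size of the day 1 falls for any of them. Those falls were selected as among the largest, so this does not show that the effect had ended by day 2. The adjusted p was between 0.888 and 0.970.

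The 2 libraries that correlated with the other label bore on this comparison. For *Cfap52*, day 2 control 3 (7.29) lay beside PD169316 2 and 3 (7.13 and 7.25), and PD169316 1 (6.44) beside control 2 (6.46). For *Nptx2*, control 3 (6.81) lay below all other day 2 arrays and PD169316 1 (7.77) beside control 1 (7.82). With both libraries left out, 12.3% of all probes passed as higher and 11.3% as lower, among them *Cfap52*, higher with PD169316 by 1.05 (adjusted p = 0.0011), and *Nptx2*, which fell by 0.60 (adjusted p = 0.0086). *Slc5a11* (-0.39, adjusted p = 0.186), *Rgr* (-0.08, adjusted p = 0.765) and *Thsd7b* (-0.03, adjusted p = 0.922) did not pass. The libraries were singled out on these same arrays, so these p-values are no independent test. *Cfap52* then lay in the opposite direction to its day 1 difference. Marker genes moved in this fit too. With PD169316, 5 of 7 OLP markers passed as higher and 0 as lower. Of 11 mature OLG markers, 9 passed as lower and 0 as higher, and of 9 astrocyte markers 6 passed as higher and 0 as lower. The part of these cell types and stages in the differences of *Cfap52* and *Nptx2* was not tested.

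**Figure D3:**
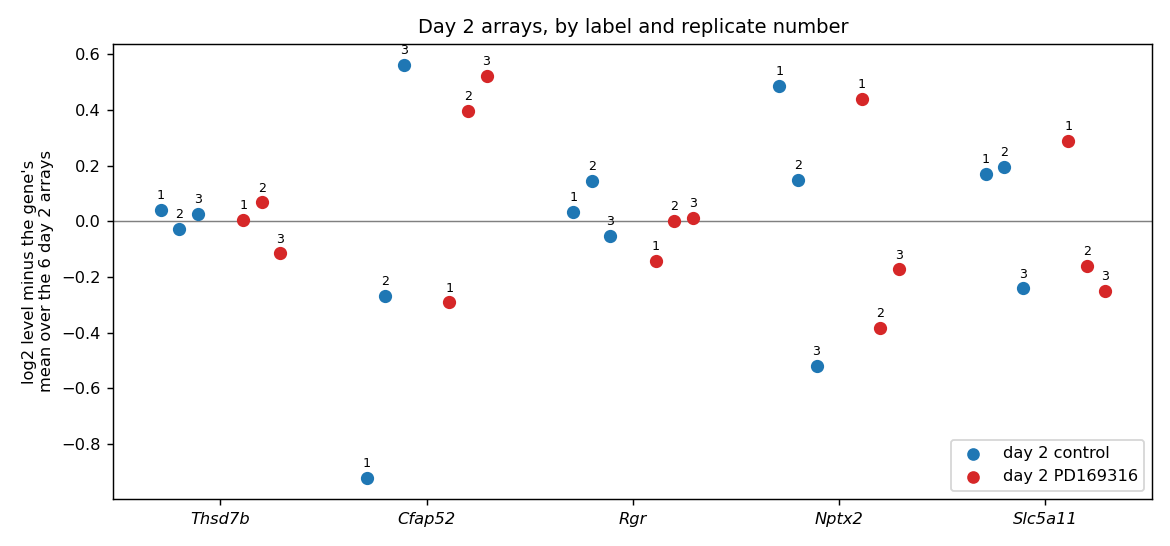
Log2 level on each of the 6 day 2 arrays minus the gene's mean over those arrays (vertical axis), by gene. Numbers are the replicate numbers of the labels, blue is control and red PD169316. Control 3 lies with PD169316 2 and 3 for *Cfap52*, *Nptx2* and *Slc5a11*, and *Thsd7b* and *Rgr* spread little.

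During differentiation without inhibitor, 4 of the 5 genes were lower at day 2 than at day 0, beside 21.6% of all probes. *Cfap52* was 15.5-fold lower (-3.95 ± 0.28, standard error, adjusted p = 6.4e-08 in limma), *Rgr* 2.45-fold (-1.30 ± 0.13, adjusted p = 2.3e-06), *Thsd7b* 2.27-fold (-1.18 ± 0.13, adjusted p = 6.9e-06) and *Nptx2* 1.75-fold (-0.81 ± 0.22, adjusted p = 0.0086). The day 2 controls of these 4 genes lay below all day 0 arrays. The sizes depended on the background correction. Without it they were -2.98 for *Cfap52*, -0.97 for *Rgr*, -0.88 for *Thsd7b* and -0.55 for *Nptx2*. Over 28 settings *Cfap52* ranged from -4.34 to -2.95, so its fold is uncertain. In the same comparison, 7 of 7 OLP markers passed as lower (median -1.17) and 10 of 11 mature OLG markers as higher (median 2.20), and their part in the changes of the 5 genes was not tested. *Slc5a11* did not pass (0.33, 95% interval -0.08 to 0.74, adjusted p = 0.177). Without the 2 libraries, *Cfap52* differed by -4.34, *Rgr* by -1.25, *Thsd7b* by -1.19 and *Nptx2* by -0.53 (adjusted p = 0.0042), and *Slc5a11* passed as higher (0.47, adjusted p = 0.0439).

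With PD169316 for 2 days, 4 of the 5 genes were lower than at day 0, beside 18.4% of all probes. The differences were -3.53 for *Cfap52*, -1.38 for *Rgr*, -1.21 for *Thsd7b* and -0.88 for *Nptx2* (adjusted p of at most 0.0057 in limma), and 0.25 for *Slc5a11* (adjusted p = 0.332). Without the 2 libraries they were -3.28, -1.33, -1.22, -1.12 and 0.09 in that order, with no change of call. Without background correction they were -2.78, -1.02, -0.90, -0.60 and 0.11. This comparison and the preceding one share the day 0 arrays.

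At day 4 with PD169316, 2 of the 5 genes were lower than at day 0, beside 27.5% of all probes. *Cfap52* was 12.3-fold lower (-3.62 ± 0.28, adjusted p = 7.3e-08) and *Thsd7b* 1.76-fold lower (-0.82 ± 0.13, adjusted p = 0.00013). Without background correction these differences were -2.84 and -0.63. *Rgr* (-0.10, 95% interval -0.38 to 0.18), *Nptx2* (0.06, -0.41 to 0.53) and *Slc5a11* (0.32, -0.08 to 0.73) did not pass. Against day 0, 7 of 7 OLP markers and 6 of 7 microglia markers were lower at day 4 and 11 of 11 mature OLG markers were higher, and their part in the changes of the 5 genes was not tested. Leaving out day 4 PD169316 3, at 6.01 the lowest array of its group for *Slc5a11*, brought that gene to 0.54 (adjusted p = 0.0223). Leaving out a group's lowest array raises its mean, so this is no separate support. Over 27 settings the difference ranged from 0.06 to 0.54, with an adjusted p of up to 0.712.

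From day 2 to day 4 of PD169316, 3 of the 5 genes were higher, beside 10.2% of all probes. In the same comparison, 9 of 11 mature OLG markers passed as higher (median 1.24). Of 7 OLP markers 3 passed as lower, where 1381 of all 10574 probes were lower. The part of these markers' cell stages in the changes of the 5 genes was not tested. *Rgr* was 2.43-fold higher (1.28 ± 0.13, adjusted p = 3.4e-05) and *Nptx2* 1.92-fold (0.94 ± 0.22, adjusted p = 0.0082), and all day 4 arrays lay above the day 2 PD169316 arrays. With only the arrays compared in the fit, the call of *Nptx2* was lost (adjusted p = 0.0617). Without background correction the rises were 0.94 for *Rgr* and 0.64 for *Nptx2*. *Thsd7b* was 1.31-fold higher (0.39 ± 0.13, adjusted p = 0.0449). That call was lost in most other settings, with an adjusted p of up to 0.149. *Cfap52* (-0.09, 95% interval -0.67 to 0.50) and *Slc5a11* (0.07, -0.33 to 0.48) did not pass, though with array weights *Cfap52* passed as lower (-0.38, adjusted p = 0.0349). Without the 2 libraries *Rgr* was at 1.23, *Nptx2* at 1.18 and *Thsd7b* at 0.40 (adjusted p = 0.052).

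**Figure D4:**
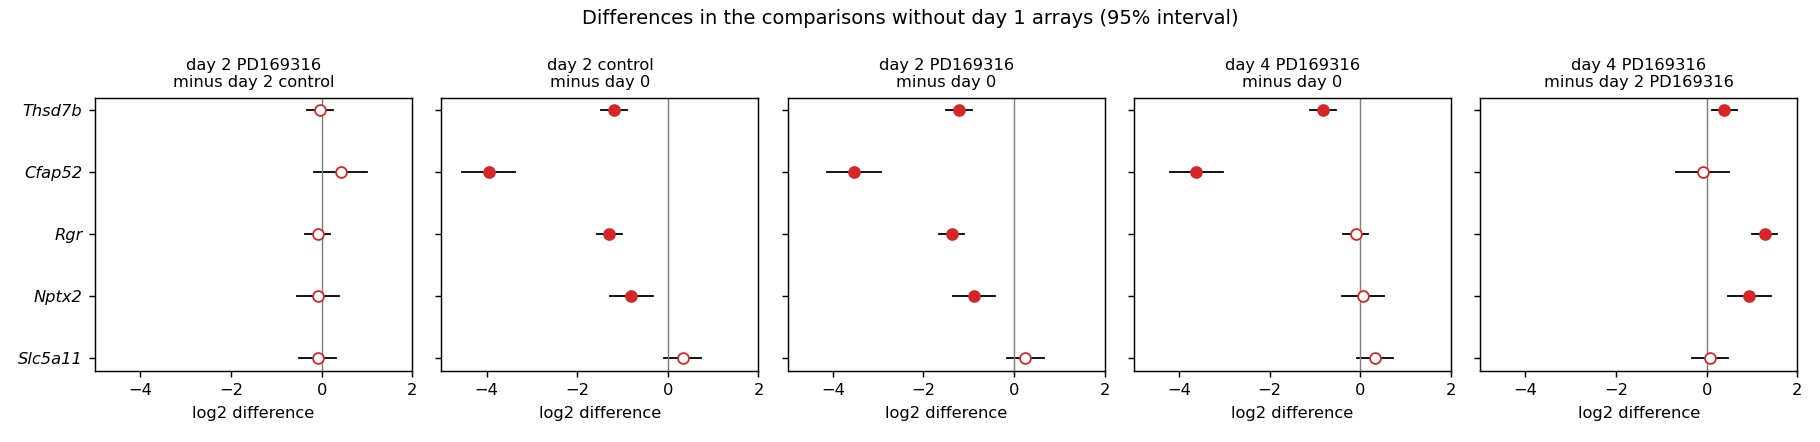
Log2 difference (horizontal axis) with its 95% interval for the 5 genes in each comparison that holds no day 1 arrays. Filled points passed at an adjusted p under 0.05 in limma over 10574 probes, and open points did not. *Cfap52* was lowest against day 0 in each later group, and no point is filled for day 2 PD169316 minus day 2 control.

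The likeness of the courses was measured as Pearson's r across arrays, as a description, since arrays of a group share their condition and the day 1 arrays chose the genes. The closest pair among the 5 was *Rgr* and *Nptx2* (r = 0.915 over 18 arrays and 0.803 over the 12 outside day 1). *Thsd7b* and *Cfap52* were at 0.684 and 0.870. *Slc5a11* was at 0.156 to 0.677 with the others over 18 arrays and at -0.539 to 0.093 outside day 1, so its likeness to them lay in the day 1 arrays. Without the 2 libraries, *Rgr* and *Nptx2* were at 0.943 over 16 arrays and 0.846 over the 10 outside day 1, *Thsd7b* and *Cfap52* at 0.676 and 0.869, and *Slc5a11* with the others at 0.189 to 0.687 and at -0.532 to 0.0067.

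Over all named probes, the genes closest to *Cfap52* were *Tacc2* (r = 0.988, and 0.991 outside day 1), *Pla2g12a* (0.982 and 0.982) and *Prkg2* (0.969 and 0.969). The genes closest to *Thsd7b* were *Mfsd2a* (0.936 and 0.929), a lipid transporter, *Vwc2* (0.935 and 0.914) and the chemokine *Ccl20* (0.913 and 0.752). Next to *Rgr* stood *Nptx2*, *Lrrn1* (0.900 and 0.913) and *Fgf12* (0.895 and 0.858), and next to *Nptx2* stood *Rab33a* (0.921 and 0.818), a small GTPase of vesicle transport, *Exoc6* (0.916 and 0.899), a subunit of the exocyst, and *Rgr*. For *Slc5a11* they were the transporter *Slc15a4* (0.922 and 0.627), *Wfikkn1* (0.884 and 0.346) and the chemokine *Ccl2* (0.870 and 0.492), each lower outside day 1. Without the 2 libraries, these correlations moved by at most 0.029 over all arrays and by at most 0.084 outside day 1.

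At day 1, 4 of 86 measured genes of related function passed as lower (4.65%) and 7 as higher (8.14%), close to the 4.48% and 6.59% of all probes. Of 25 measured genes of motile cilia, the family of *Cfap52*, 1 fell, the dynein chain gene *Dnai2* (-1.10, adjusted p = 0.0244), and 3 rose, *Ccdc103* (0.70), *Tppp3* (0.64) and *Ift57* (0.60). The median was 0.20, beside -0.0045 over all probes. Of 18 measured genes with thrombospondin type 1 repeats, 3 fell, namely *Sspo* (-1.25, adjusted p = 0.00039), which encodes SCO-spondin, the guidance gene *Sema5b* (-1.19, adjusted p = 0.0028) and the matrix gene *Hmcn1* (-1.01, adjusted p = 7.5e-06), and none rose (median -0.17).

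Of 19 measured retinoid and opsin genes, *Retsat*, a retinol saturase, rose (0.37, adjusted p = 0.0023) and none fell (median -0.02). Of 14 genes of pentraxins and AMPA receptors, *Adam17*, a membrane protease, rose (0.79, adjusted p = 6.4e-05) and none fell (median -0.06). The 10 measured transport and inositol genes listed beside *Slc5a11* encode enzymes as well as transporters. Of these, *Impa2*, an inositol monophosphatase (1.02, adjusted p = 0.00026), and *Akr1b1*, an aldose reductase (0.27, adjusted p = 0.0155), rose and none fell (median 0.14). The other 8 of the 10 genes did not pass, among them *Slc5a3* (0.26, adjusted p = 0.323).

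From day 0 to day 2 without inhibitor, 21.6% of all probes fell and 20.6% rose. Of the 25 cilium genes, 8 rose, led by *Tekt1* (1.46), *Tppp3* (1.38) and *Dynlrb2* (1.20), and 2 fell, so *Cfap52* (-3.95) lay apart from most of them. Of the 14 pentraxin and AMPA receptor genes, 6 fell and 3 rose. Among those that fell were *Cacng4*, a TARP auxiliary subunit (-2.00), the receptor subunit *Gria3* (-1.64) and the scaffold *Grip1* (-1.42). Of the 19 retinoid and opsin genes, 7 rose and 5 fell. *Rlbp1*, the retinal-binding partner of the visual cycle, fell by 2.22 (adjusted p = 4.1e-06), and *Aldh1a1* (1.97) and *Cyp26b1* (1.91), which make and break down retinoic acid, rose. Of the 18 thrombospondin repeat genes, 6 rose, with *Unc5b* (2.31), *Adamts4* (2.13) and *Adamts9* (1.61) at the top, and 4 fell. Of the 10 transport and inositol genes, 3 rose, the enzyme genes *Impa2* (0.77), *Bpnt1* (0.25) and *Cdipt* (0.24). *Isyna1*, which makes inositol phosphate from glucose phosphate, fell by 0.52. The transporter genes *Slc5a3*, *Slc5a5*, *Slc5a6* and *Slc6a6* did not pass. The 3 genes of each family with the largest change kept their direction and passed without the 2 day 2 libraries, with *Cacng4* at -2.72 and *Rlbp1* at -2.56. In that fit, where 25.2% of all probes rose and 25.9% fell, 9 cilium genes rose and 5 fell, 3 and 6 pentraxin and AMPA receptor genes, 6 and 7 retinoid genes, 6 and 5 thrombospondin repeat genes and 4 and 1 transport and inositol genes.

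By day 4 of PD169316, where 23.2% of all probes were higher than at day 0 and 27.5% lower, 10 of the 25 cilium genes were higher and 4 lower, and 2 of the 14 pentraxin and AMPA receptor genes were higher and 8 lower (median -0.81). *Nptx2* itself was near its day 0 level there. Of the retinoid genes 7 were higher and 4 lower, of the thrombospondin repeat genes 7 and 6, and of the transport and inositol genes 4 and 2. At day 2, PD169316 against control, none of the genes of the 5 lists passed, and without the 2 libraries 22 of 86 were higher and 12 lower, beside the 12.3% and 11.3% of all probes given above.

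**Figure D5:**
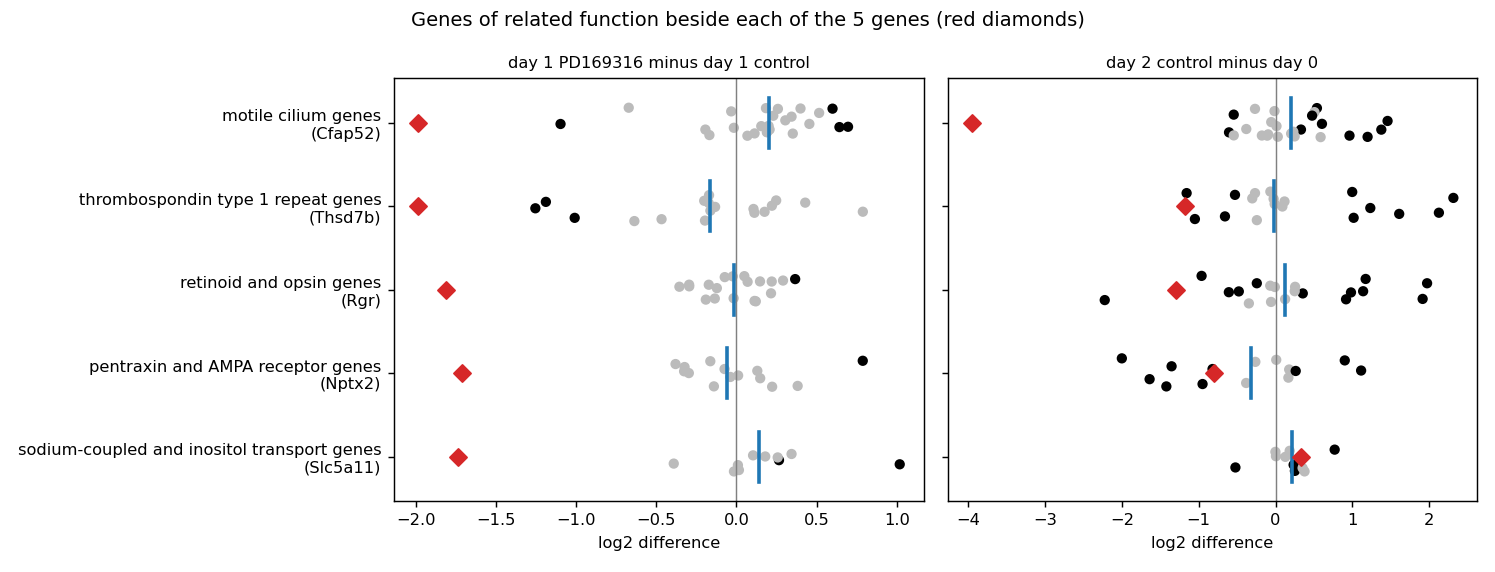
Log2 differences (horizontal axis) of the measured genes of each family at day 1, PD169316 minus control (left), and at day 2 control minus day 0 (right). Black points passed at an adjusted p under 0.05 in limma and grey points did not, blue lines are family medians, and red diamonds are the 5 genes, drawn without a call. The diamonds on the left lie low because the genes were selected on that contrast, and on the right that of *Cfap52* is at -3.95.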

How the data were processed

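The intensity values deposited by the authors are linear mean bead signals with no background subtraction and no normalization between arrays, and the p-value of detection that the authors deposited beside each compares the probe with negative control beads. With neqc of limma 3.58.1 (R 4.3.3), background was removed, arrays were quantile normalized and log2 was taken after adding an offset of 16. A probe was kept where its detection p was under 0.01 on all 3 arrays of some group (10574 of 22523). Detection reached 9789 to 10773 probes on each array, and median intensities were 121 to 149. A single limma model held the 6 group means of all 18 arrays, leaving 12 residual degrees of freedom to which the prior added 3.16. P-values were adjusted by the Benjamini-Hochberg method across kept probes, every adjusted p is limma's, and 0.05 was the threshold. The number of arrays limits the precision.

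Members were represented by the probe with the highest mean. Also named were the 3 genes most correlated with each, 3 genes next in order on each side of their day 1 falls, and up to 3 called genes of each family list with the largest change. The members and lists were chosen with earlier results of these data known. Day 1 of PD169316 chose the members and was not tested for them. Day 2 and day 4 groups were compared with day 0, with each other under PD169316 and, at day 2, with the control. Alternatives changed the normalization (deposited values as log2, 75th percentile scaling, no background correction, an offset of 50), the filter, the arrays in the fit, the pairing by replicate number, the array weights and the threshold, or left out libraries. The procedure was tested on simulated data. The treatment text speaks of 24 or 48 h while labels include day 4, and labels were followed. Plots came from matplotlib 3.10.9 with pandas 2.3.3 under Python 3.11.15.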

Additional observations from a re-analysis of the deposited data

How the results depend on the processing

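The falls of *Cfap52*, *Rgr* and *Thsd7b* from day 0 to both day 2 groups, those of *Nptx2* over the same steps and those of *Cfap52* and *Thsd7b* at day 4 kept their direction and their call in every setting that gave a value, and so did the rise of *Rgr* from day 2 to day 4 of PD169316. For day 2 PD169316 against control, where 0 probes passed, array weights gave 3946 probes and 2 of the 5 genes, the fit without the 2 libraries that lie with the other label 2500 and 2, and an unadjusted p 469. Between 0 and 8 probes passed when single libraries were left out, the 8 without day 2 control 3. At day 4 against day 0, the deposited values gave 3518 probes in place of 5358. From day 2 to day 4 of PD169316, 2455 probes passed, 1122 with the deposited values, 283 with only the arrays compared, 6008 with array weights, 4449 without the 2 libraries and 3989 with an unadjusted p. With only the arrays compared, 1 of the 5 genes passed. *Nptx2* was lost at an adjusted p of 0.0617 and *Thsd7b* at 0.0833. Leaving out single libraries gave 1164 (without day 2 PD169316 2) to 3980 (without day 2 PD169316 1), with 1236 without day 2 PD169316 3 and 1408 without day 4 PD169316 2. Directions turned only for differences that had not passed. With the deposited values these were *Thsd7b* at day 2 against control (0.029), *Slc5a11* at day 2 against day 0 (-0.070 for control and -0.092 for PD169316), *Nptx2* at day 4 against day 0 (-0.10) and *Cfap52* from day 2 to day 4 (0.052), and with array weights *Thsd7b* at day 2 (0.035) and *Rgr* at day 4 (0.023). With single libraries left out, the day 2 differences between PD169316 and control ranged from -0.068 to 0.023 for *Thsd7b*, -0.36 to 0.15 for *Nptx2* and -0.25 to 0.023 for *Slc5a11*. Likewise, at day 4 against day 0 *Rgr* ranged from -0.19 to 0.053 and *Nptx2* from -0.030 to 0.19, and from day 2 to day 4 *Cfap52* ranged from -0.34 to 0.071 and *Slc5a11* from -0.13 to 0.29. The cause of these changes was not tested. Between the day 2 groups, deviations of same-numbered samples correlated at 0.56 for number 1, -0.53 for number 2 and 0.54 for number 3, so the numbers were not taken as pairs, and with a replicate block 0 probes passed between the day 2 groups, 4478 for day 2 control against day 0 and 2554 from day 2 to day 4, with no change of call for the 5 genes. Using all probes of *Cfap52* gave no further value, since its other probe was not detected. With 3 arrays per group and *Slc5a11* near background, small differences in that gene were not measurable.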
